A study of Danio rerio with 9 samples.

Results

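The KLF and SP genes of the zebrafish were examined in thyroid tumors driven by either of 2 human oncogenes. The set held every gene of the deposited table whose symbol is klf or sp followed by a number and an optional letter, so membership rested on names and not on expression values, although the set was picked for study with earlier results of these data known. It took in 32 of 27158 genes, 21 of them KLF genes and 11 SP genes. After the filter on low counts 29 of the 32 were tested, among 18453 genes in all, and sp5l, sp5a and sp8b were left out by the filter. A row for SP6, written in capitals, fell outside the symbol rule. Several zebrafish genes of the set are duplicate copies of a single mammalian gene, which the letters a and b mark, and all 32 are annotated as protein-coding on GRCz10.

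RNA was sequenced from 4 CCDC6-RET tumors (numbers 2, 3, 5 and 6) and 5 BRAF(V600E) tumors (numbers 1, 2, 3, 6 and 7), all from adult fish. In both groups the zebrafish thyroglobulin promoter, which is active in thyroid follicular cells, drove the oncogene. CCDC6-RET, a fusion kinase of human thyroid cancer, was put as a tol2 transgene into fish that also carried a red TdTomato reporter in the thyroid. BRAF(V600E), an activated kinase, came from an earlier fish line. A p53 mutation was carried by the BRAF(V600E) fish in which the study timed tumor onset, and for the sequenced tumors the labels leave this unsaid. Whether every library stems from its own fish is not in the labels, so the spread behind the p-values may be technical. Age at collection, clutch, sex and sequencing run are not in the labels, and a difference in any of them cannot be told apart from the oncogene. The comparison asked which of these factors are expressed at another level in RET-driven than in BRAF-driven tumors.

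KLF and SP factors bind GC-rich and CACCC elements of promoters and enhancers through a shared set of zinc fingers at their C-terminal end, while their other parts differ and recruit activators or repressors. SP1 to SP3 act in nearly all cells, whereas most KLF factors and SP5 to SP9 are known for particular tissues. Examples are KLF1 in red blood cells, KLF2 in endothelium, KLF4 and KLF5 in epithelia, KLF15 in muscle and liver and SP7 in bone. The related factors KLF9 and KLF13 are known as genes that hormones regulate, KLF9 by thyroid hormone and glucocorticoids.

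Total counts per library lay between 8662544 and 13596477 in CCDC6-RET tumors and between 10656967 and 13354953 in BRAF(V600E) tumors. Genes with 1 count or more numbered 20691 to 21407 per library in CCDC6-RET tumors and 23453 to 23916 in BRAF(V600E) tumors. Values below are normalized read counts (CPM, counts scaled to a common library size). Log2 fold changes give CCDC6-RET minus BRAF(V600E) and carry a standard error after ±. This error was computed as the absolute log2 fold change over the square root of the F statistic of the edgeR test. For genes with few counts in a group it can understate the counting error. Tests are edgeR quasi-likelihood tests with Benjamini-Hochberg adjustment over all 18453 genes. CPM was not divided by gene length, so levels of different genes were not compared. Over 15 thyroid follicular cell genes, sums were 14525 to 32062 CPM in CCDC6-RET tumors and 2545 to 21567 CPM in BRAF(V600E) tumors. Most of either sum was tg alone, at 19263 and 9877 CPM on average (log2 fold change 0.96 ± 0.55, edgeR adjusted p = 0.141). Of the 14 list genes tested, 10 were higher in CCDC6-RET tumors and 1 was lower (median log2 fold change 3.85). The untested nkx2.4a had 0 counts in CCDC6-RET tumors and 1 count in BRAF(V600E) tumors. In these bulk samples, fewer cells of a type and less RNA per cell cannot be told apart.

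Lower calls outnumbered higher ones in CCDC6-RET tumors. Of the 29 tested members, 4 were higher (sp9, klf11b, klf5l and klf3), 15 were lower and 10 did not pass an adjusted p of 0.05. Over all genes tested, 33.9% were called higher and 38.2% were called lower. The median log2 fold change was -1.15 over the members and -0.09 over all genes tested. A fall by more than 3 log2 units was called for 9 of the 29 members (31.0%), and for 18.6% of all genes tested. In 2 members every CCDC6-RET tumor lay above every BRAF(V600E) tumor, as did 29.2% of all genes tested, and in 17 members every CCDC6-RET tumor lay below, as did 35.5% of all genes tested. The split by direction followed the libraries' scaling in part, since with libraries scaled to equal ribosomal protein counts 2 members were higher and 21 lower and the median of all genes moved to -0.65.

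**Figure D1:**
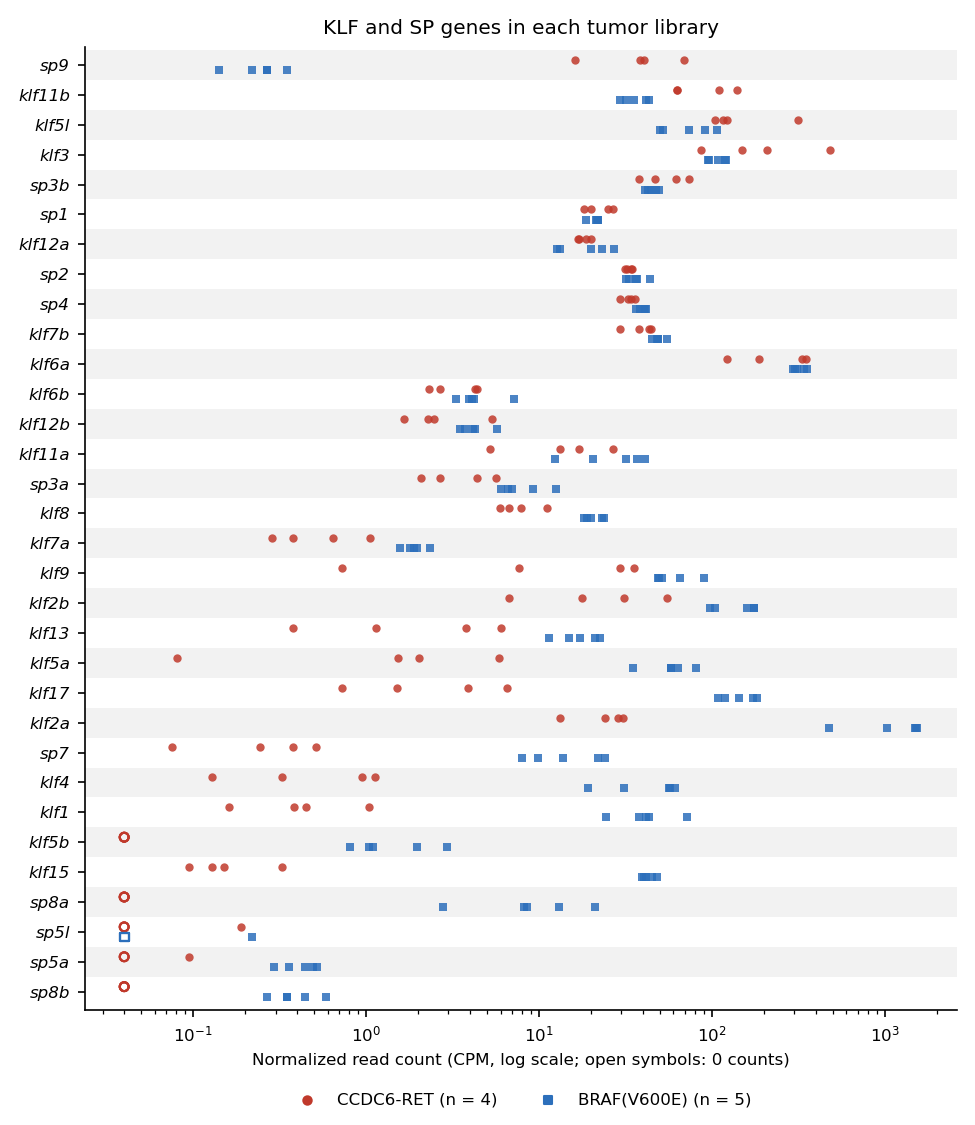
Normalized read counts (CPM, log scale) of all 32 KLF and SP genes, with 1 point per library for 4 CCDC6-RET tumors (red circles) and 5 BRAF(V600E) tumors (blue squares), and open symbols for 0 counts. Genes run from the highest to the lowest log2 fold change, and sp9 stands alone at the top with its groups far apart. The points of sp1, sp2 and sp4 in the middle lie close together.

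The members split by class. The 21 KLF genes gave 3 higher and 12 lower calls with a median log2 fold change of -1.67. The 8 tested SP genes gave 1 higher and 3 lower calls with a median of -0.20. Within the KLF genes, the activators with KLF4 and its relatives (KLF1, 2, 4, 5, 6, 7 and 17) had 1 higher and 9 lower calls among 12 genes. Their median was -3.50, or -3.45 with klf5b, which had 0 counts in CCDC6-RET tumors, placed at its bound. The CtBP-binding repressors (KLF3, 8 and 12) and the SIN3A-binding repressors (KLF9, 11 and 13) each had 1 higher and 1 lower call among 4 genes, with medians of -0.30 and -1.31. The 5 genes of SP1 to SP4 had a median of -0.14, and only sp3a among them was called. The 3 tested genes of SP5 to SP9 were all called, 1 higher and 2 lower.

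**Figure D2:**
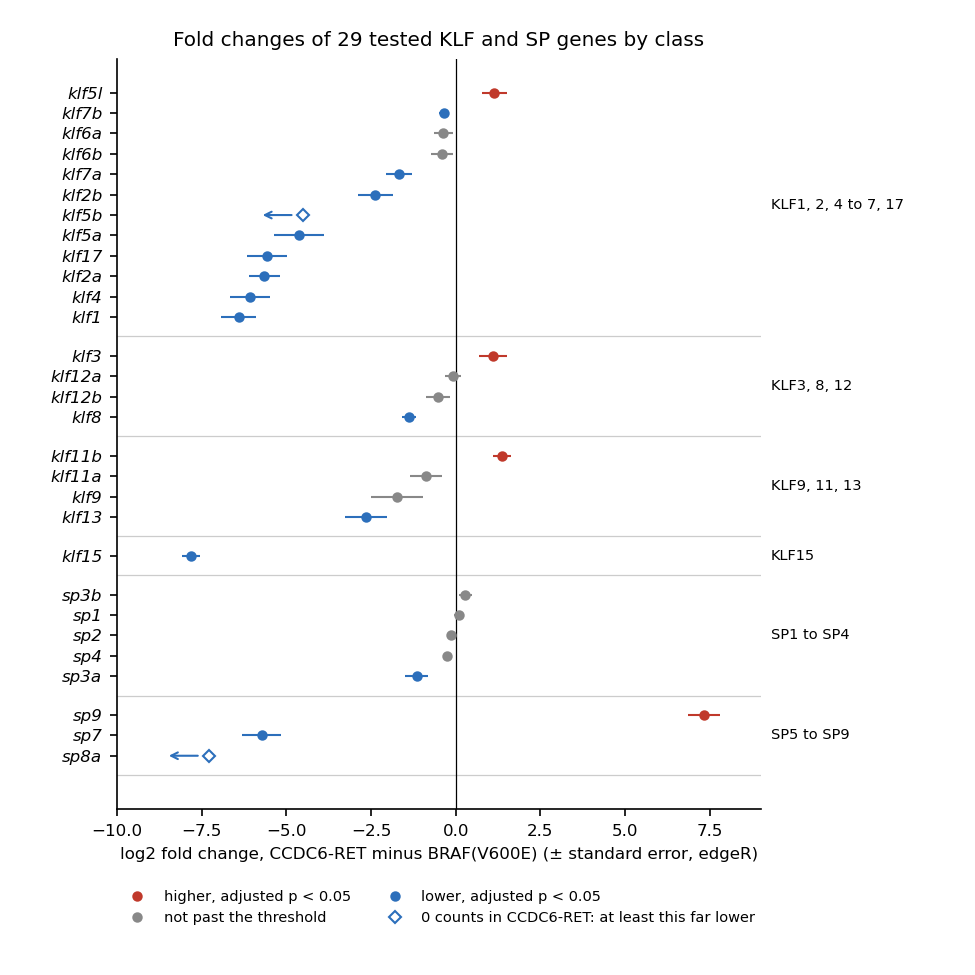
Log2 fold change, CCDC6-RET minus BRAF(V600E), with its standard error for the 29 tested genes, grouped by class from the activator KLF genes at the top to SP5 to SP9 at the bottom. Colour marks the edgeR call, the open diamonds of klf5b and sp8a mark the smallest fall that 0 counts in CCDC6-RET tumors allow, and the points run from sp9 at 7.33 to klf15 at -7.81.

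The erythroid factor klf1, which in mammals switches on the adult beta-globin gene, was nearly absent from CCDC6-RET tumors. It had 0.453, 0.385, 0.162 and 1.05 CPM in CCDC6-RET tumors 2, 3, 5 and 6, against 41.9, 43.4, 38.1, 24.5 and 71.6 CPM in BRAF(V600E) tumors 1, 2, 3, 6 and 7. Both groups were far apart, and tumor 7 was the highest of the BRAF(V600E) tumors and tumor 6 the lowest. For klf1 (ENSDARG00000017400, chromosome 6, 7894004 to 7905419) the log2 fold change was -6.41 ± 0.51 (edgeR adjusted p = 6.16e-06). Its gene model overlaps palm3, which was also lower, at -2.52 (edgeR adjusted p = 0.00126), and since the use of strand in counting is not given, reads of the overlap cannot be assigned with certainty.

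Other genes of red blood cells were lower in the same tumors. Among 15 erythroid genes tested, 0 were higher and 13 were lower, with a median of -3.98, and the globins hbba1, hbba2, hbaa1 and hbaa2 were all among the 13. GATA1, the master factor of red cell development, works with KLF1 at many erythroid genes, and its fish gene gata1a fell by 3.98 ± 0.34 (edgeR adjusted p = 8.38e-06). The blood factor gene tal1 fell by 4.30 ± 0.48 (edgeR adjusted p = 3.88e-05). Summed over the list, erythroid genes had 396, 824, 248 and 1052 CPM in CCDC6-RET tumors 2, 3, 5 and 6, against 8524, 8835, 6884, 4954 and 15407 CPM in BRAF(V600E) tumors 1, 2, 3, 6 and 7. All 5 BRAF(V600E) tumors stood in the same order for klf1 and for this sum, while klf1 rested on 2 to 11 counts per CCDC6-RET tumor. The part of red blood cells in the fall of klf1 was not tested.

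The fish gene klf17, which RefSeq also lists under klf4b and biklf and which the table pairs with human KLF4, is known from blood islands of the zebrafish embryo. It had 1.51, 6.55, 0.731 and 3.90 CPM in CCDC6-RET tumors 2, 3, 5 and 6, against 183, 174, 109, 144 and 119.9 CPM in BRAF(V600E) tumors 1, 2, 3, 6 and 7. All CCDC6-RET tumors lay far below, and the log2 fold change was -5.57 ± 0.59 (edgeR adjusted p = 2.81e-05). Within the BRAF(V600E) group klf17 was highest in tumor 1 and klf1 in tumor 7.

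KLF2 is induced by blood flow in vascular endothelium and keeps T cells at rest, and both fish copies were lower in CCDC6-RET tumors. The copy klf2a (ENSDARG00000042667, chromosome 22, 15871951 to 15874649) had 24.2, 28.5, 13.3 and 30.8 CPM in CCDC6-RET tumors 2, 3, 5 and 6, against 1028, 1521, 1543, 1496 and 478 CPM in BRAF(V600E) tumors 1, 2, 3, 6 and 7. No overlap was seen between the groups, although BRAF(V600E) tumor 7 stood well below tumors 2, 3 and 6. Its log2 fold change was -5.65 ± 0.45 (edgeR adjusted p = 6.41e-06). The other copy, klf2b, had 31.2, 54.8, 6.74 and 17.8 CPM in CCDC6-RET tumors, against 105, 175, 175, 159.9 and 97.5 CPM in BRAF(V600E) tumors, in the same order of tumors. It fell by less, at -2.37 ± 0.52 (edgeR adjusted p = 0.00251), again with no overlap.

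Endothelial genes did not all follow the KLF2 copies. Of 18 endothelial genes tested, 0 were higher and 12 were lower, with a median of -1.60. The sums were 153 to 528 CPM in CCDC6-RET tumors and 640 to 917 CPM in BRAF(V600E) tumors. The lymphatic gene lyve1b (-5.90 ± 0.57, edgeR adjusted p = 1.52e-05) and the receptor gene flt4 (-4.77 ± 0.55, edgeR adjusted p = 4.48e-05) had the smallest p of the list. These falls rest on 3 and 32 counts over CCDC6-RET tumors. The endothelial cadherin gene cdh5 was at 71.8 CPM in CCDC6-RET tumors and 70.4 CPM in BRAF(V600E) tumors (log2 fold change 0.03 ± 0.40, edgeR adjusted p = 0.955), and flt1 at 19.3 CPM and 20.4 CPM (-0.09 ± 0.50, edgeR adjusted p = 0.881), both chosen after their values were seen. Genes of T and NK cells had 2 higher and 9 lower calls among 13 tested (median -4.54), with sums of 74.6 to 164 CPM in CCDC6-RET tumors and 564 to 677 CPM in BRAF(V600E) tumors. The 2 higher were zap70 and cd3eap, of which cd3eap encodes an RNA polymerase subunit. They averaged 73.9 and 13.4 CPM in CCDC6-RET tumors, most of the sum there, against 24.8 and 7.30 CPM in BRAF(V600E) tumors. Of the lower ones, runx3 was at -3.18 ± 0.12 and il2rb at -9.42 ± 0.48 (edgeR adjusted p = 4.54e-07 and 1.01e-06). The il2rb value rests on 2 counts over CCDC6-RET tumors. Genes of macrophages and neutrophils had 0 higher and 11 lower calls among 14 (median -2.82), with sums of 26.0 to 239 CPM in CCDC6-RET tumors and 515 to 640 CPM in BRAF(V600E) tumors. The neutrophil genes mpx and lyz were at -5.84 ± 0.29 and -7.85 ± 0.45 (edgeR adjusted p = 9.88e-07 and 1.48e-06), and the untested receptor gene cxcr1 had 0 counts in CCDC6-RET tumors and 39 counts over BRAF(V600E) tumors. The mpx and lyz values rest on 16 and 4 counts over CCDC6-RET tumors. Most of the macrophage and neutrophil sum in CCDC6-RET tumors came from mmp9 and marco, at 68.9 and 23.8 CPM on average. Neither passed (edgeR adjusted p = 0.824 and 0.547), with 80.3 and 18.6 CPM in BRAF(V600E) tumors. The part of endothelial or immune cells in the fall of klf2a and klf2b was not tested.

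KLF4 directs the barrier of the skin, and KLF5 drives growth of epithelial cells, among them those of the gut crypt. The fish gene klf4 (ENSDARG00000079922, chromosome 21, 469621 to 485929) had 1.13, 0.128, 0.325 and 0.952 CPM in CCDC6-RET tumors 2, 3, 5 and 6, against 19.2, 57.6, 56.4, 61.3 and 30.9 CPM in BRAF(V600E) tumors 1, 2, 3, 6 and 7. Its log2 fold change was -6.06 ± 0.59 (edgeR adjusted p = 1.72e-05). No CCDC6-RET tumor came near the BRAF(V600E) range, and tumors 1 and 7 were the low ones of the BRAF(V600E) group.

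The genes named klf5 were called in opposite directions. The copy klf5a (ENSDARG00000015506, chromosome 1, 33860922 to 33880045) had 2.04, 1.54, 0.0812 and 5.90 CPM in CCDC6-RET tumors 2, 3, 5 and 6, against 58.3, 80.5, 63.4, 58.4 and 34.8 CPM in BRAF(V600E) tumors 1, 2, 3, 6 and 7. It fell by 4.63 ± 0.74 (edgeR adjusted p = 0.000347), and no CCDC6-RET tumor came near the lowest BRAF(V600E) tumor, number 7. The gene klf5l (ENSDARG00000018757, chromosome 21, 38081171 to 38106118) had 122, 316, 104 and 116 CPM in the same CCDC6-RET tumors, against 50.1, 73.6, 91.3, 107 and 52.5 CPM in the same BRAF(V600E) tumors. Here CCDC6-RET tumor 3 stood above all others, and CCDC6-RET tumor 5 lay below BRAF(V600E) tumor 6. Over all tumors klf5l was higher by 1.14 ± 0.37 on the log2 scale (edgeR adjusted p = 0.0195). This call ended without CCDC6-RET tumor 3 (log2 fold change 0.62, edgeR adjusted p = 0.0545), without BRAF(V600E) tumor 7 (1.04, 0.0506) and with ribosomal scaling (0.48, 0.215), and in 2 further alternatives, with a range of adjusted p from 0.0131 to 0.215 over 17 alternatives. The table pairs klf5l with human KLF7 and RefSeq lists it also as klf18, so its name alone ties it to KLF5. Another gene of that number, klf5b, had 0 counts in all CCDC6-RET tumors against 0.807, 1.97, 1.04, 2.95 and 1.097 CPM in BRAF(V600E) tumors, at least 23.0-fold lower when CCDC6-RET tumors are set at 3 counts over the group.

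Most skin genes were lower. Of 20 epidermal genes tested, 2 were higher and 15 were lower, with a median of -4.99. The skin factor genes grhl1 (-5.93 ± 0.38, edgeR adjusted p = 2.24e-06) and tp63 (-4.98 ± 0.32, edgeR adjusted p = 2.29e-06) were lower, whereas the genes of the adhesion proteins cdh1 and dsc2l were the 2 that were higher. Summed levels came to 7363, 7580, 4789 and 8693 CPM in CCDC6-RET tumors 2, 3, 5 and 6, against 23493, 29690, 25634, 24197 and 13834 CPM in BRAF(V600E) tumors 1, 2, 3, 6 and 7. Within the BRAF(V600E) group this sum and klf5a were lowest in tumor 7 and highest in tumor 2, whereas klf4 was lowest in tumor 1 and highest in tumor 6. The epidermal sum with CCDC6-RET came mostly from icn, epcam and cldni, averaging 3233, 973 and 868 CPM. These genes did not pass (edgeR adjusted p = 0.0668, 0.108 and 0.0634), with averages of 2517, 586 and 509 CPM under BRAF(V600E). The keratin gene krt5 made up most of the epidermal sum under BRAF(V600E), averaging 13391 CPM against 54.1 CPM with CCDC6-RET. Ionocyte genes, of the salt-transporting cells of skin and gill, were lower in 12 of 12 (median -8.19), with sums of 43.5 to 51.8 CPM in CCDC6-RET tumors and 2126 to 3389 CPM in BRAF(V600E) tumors. The ionocyte gene rhcga fell by 11.88 ± 0.45 (edgeR adjusted p = 4.8e-07), and the defining factor foxi3b had 0 counts in CCDC6-RET tumors and 3304 counts over BRAF(V600E) tumors. The part of skin or gill in the falls of klf4 and klf5a was not tested.

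KLF6 is made in most tissues and KLF7 is best known from neurons. Neither KLF6 copy passed the test. The gene klf6a (ENSDARG00000029072, chromosome 24, 4109697 to 4117128) had 350 CPM in CCDC6-RET tumor 2, 188 in tumor 3, 123 in tumor 5 and 334 in tumor 6, against 302, 341, 296, 353 and 313 CPM in BRAF(V600E) tumors 1, 2, 3, 6 and 7. CCDC6-RET tumors 2 and 6 lay within the BRAF(V600E) range while tumors 3 and 5 lay below it, and the log2 fold change was -0.37 ± 0.28 (edgeR adjusted p = 0.260). The other copy, klf6b, had 3.41 ± 1.07 CPM in CCDC6-RET tumors and 4.54 ± 1.51 CPM in BRAF(V600E) tumors (SD, n = 4 and 5, log2 fold change -0.41 ± 0.32, edgeR adjusted p = 0.267). Both KLF7 copies were lower with no overlap of the groups. The copy klf7a had 0.590 ± 0.345 CPM and 1.91 ± 0.281 CPM in CCDC6-RET and BRAF(V600E) tumors (log2 fold change -1.67 ± 0.39, edgeR adjusted p = 0.00335), and klf7b had 38.8 ± 6.80 CPM and 49.1 ± 3.59 CPM (-0.34 ± 0.14, edgeR adjusted p = 0.0474). The klf7b call ended in 9 of 17 alternatives, with a range of adjusted p from 0.00124 to 0.189.

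Among the KLF factors that recruit the corepressor CtBP, klf3 was called higher and klf8 lower. The gene klf3, whose mammalian counterpart restrains KLF1 targets in red cells and fat cell formation, had 149, 209.6, 87.2 and 484 CPM in CCDC6-RET tumors 2, 3, 5 and 6, against 119.9, 96.6, 108, 120.2 and 95.5 CPM in BRAF(V600E) tumors 1, 2, 3, 6 and 7. CCDC6-RET tumor 6 was the highest and CCDC6-RET tumor 5 the lowest of all 9, so the groups overlapped. The log2 fold change was 1.11 ± 0.41 (edgeR adjusted p = 0.0335). The klf3 call ended without CCDC6-RET tumor 6 (log2 fold change 0.49, edgeR adjusted p = 0.115), without any 1 of the 5 BRAF(V600E) tumors (edgeR adjusted p = 0.0555, 0.0704, 0.0636, 0.0564 and 0.0705 without tumors 1, 2, 3, 6 and 7) and in 3 further alternatives, with a range of 0.00467 to 0.284 over 17. The klf3 gene model (ENSDARG00000015495, chromosome 1, 17586972 to 17922126) overlaps 4 other genes, of which fam114a1 was higher (0.69) and klhl5 and si:dkey-192k22.2 were lower (-1.40 and -4.90), so its counts are uncertain where the models overlap.

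The repressor gene klf8 was lower in all CCDC6-RET tumors, at 11.1, 6.68, 7.88 and 5.998 CPM in tumors 2, 3, 5 and 6, against 18.1, 23.9, 20.0, 19.0 and 23.0 CPM in BRAF(V600E) tumors 1, 2, 3, 6 and 7. No overlap was seen between the groups, and the log2 fold change was -1.39 ± 0.21 (edgeR adjusted p = 0.000221). The KLF12 copies did not pass, at -0.08 ± 0.24 for klf12a (18.2 ± 1.43 CPM in CCDC6-RET tumors, 19.2 ± 6.31 CPM in BRAF(V600E) tumors, edgeR adjusted p = 0.766) and -0.52 ± 0.35 for klf12b (2.95 ± 1.65 CPM and 4.27 ± 0.859 CPM, edgeR adjusted p = 0.207). For klf12a the BRAF(V600E) tumors were the more spread ones.

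KLF9, KLF11 and KLF13 recruit the corepressor SIN3A, and the KLF11 copies moved apart. The copy klf11b (ENSDARG00000013794, chromosome 17, 32413430 to 32417536) had 62.6, 139.9, 63.3 and 109.6 CPM in CCDC6-RET tumors 2, 3, 5 and 6, against 29.4, 41.8, 35.5, 43.5 and 31.8 CPM in BRAF(V600E) tumors 1, 2, 3, 6 and 7. Every CCDC6-RET tumor lay above every BRAF(V600E) tumor, and the log2 fold change was 1.36 ± 0.26 (edgeR adjusted p = 0.000942). It kept its call in 17 of 17 alternatives. The copy klf11a (ENSDARG00000030844, chromosome 20, 29599186 to 29602984) had 17.1, 26.7, 13.2 and 5.24 CPM in CCDC6-RET tumors, against 41.3, 37.1, 12.4, 20.4 and 31.8 CPM in BRAF(V600E) tumors, in the same order of tumors. The groups overlapped, and the difference did not pass (-0.88 ± 0.47, edgeR adjusted p = 0.117). KLF11 is known as a gene that transforming growth factor beta induces.

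The hormone-regulated gene klf9 varied widely among CCDC6-RET tumors. It had 29.3, 7.71, 0.731 and 35.6 CPM in CCDC6-RET tumors 2, 3, 5 and 6, against 48.5, 49.4, 65.3, 90.6 and 51.8 CPM in BRAF(V600E) tumors 1, 2, 3, 6 and 7. All CCDC6-RET tumors lay below all BRAF(V600E) tumors, with tumor 5 far below its own group. The log2 fold change of -1.73 ± 0.78 did not pass (edgeR adjusted p = 0.0678), and it passed in 7 of 17 alternatives, among them without CCDC6-RET tumor 5, with a range of adjusted p from 0.0144 to 0.146. Genes of the glucocorticoid response had 2 higher and 8 lower calls among 15 tested, with a median of -0.80. The 2 higher were the clock gene per1a (2.21 ± 0.30, edgeR adjusted p = 0.000120) and fkbp5 (1.45 ± 0.45, edgeR adjusted p = 0.0154). The gluconeogenesis gene pck1 had 0 counts in CCDC6-RET tumors against 9.01 CPM in BRAF(V600E) tumors. Their sums came to 4775, 2993, 1254 and 4653 CPM in CCDC6-RET tumors 2, 3, 5 and 6, against 3715, 4090, 4380, 5925 and 4487 CPM in BRAF(V600E) tumors 1, 2, 3, 6 and 7. Both this sum and klf9 were lowest in CCDC6-RET tumor 5 and highest in BRAF(V600E) tumor 6. The low of CCDC6-RET tumor 5 was not particular to these genes. Within its group that tumor also had the lowest erythroid, epidermal, cartilage, muscle, endothelial, T and NK, and macrophage and neutrophil sums. With CCDC6-RET the largest average in this list was that of fkbp5, 1944 CPM versus 714 CPM under BRAF(V600E). Its change was opposite in sign to that of klf9. The part of hormone exposure was not tested.

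The related gene klf13, known in mammals from T cells and the heart, had 3.78, 6.04, 1.14 and 0.381 CPM in CCDC6-RET tumors 2, 3, 5 and 6, against 14.98, 17.3, 11.4, 21.1 and 22.4 CPM in BRAF(V600E) tumors 1, 2, 3, 6 and 7. No overlap was seen between the groups, and the log2 fold change was -2.65 ± 0.63 (edgeR adjusted p = 0.00370). The klf13 call ended in 1 of 17 alternatives, with a range of adjusted p from 2.62e-05 to 0.0762. Antisense gene models lie over klf11b, klf13, klf15 and sp3b, and none of the 4 antisense models averaged more than 1 CPM in either group.

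KLF15 controls amino acid, sugar and fat use in muscle and liver and is a target of glucocorticoids, and its fish gene klf15 had the lowest adjusted p of the set. It had 0.151, 0.128, 0.325 and 0.0952 CPM in CCDC6-RET tumors 2, 3, 5 and 6, against 39.6, 40.4, 48.3, 41.8 and 45.3 CPM in BRAF(V600E) tumors 1, 2, 3, 6 and 7. Levels in BRAF(V600E) tumors lay close together and all CCDC6-RET tumors were below 1 CPM. For klf15 (ENSDARG00000091127, chromosome 23, 35088769 to 35096994) the log2 fold change was -7.81 ± 0.27 (edgeR adjusted p = 3.45e-07). The size of this fall rests on 8 counts over all CCDC6-RET tumors.

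Muscle genes were lower too, and their sum varied more than klf15 among BRAF(V600E) tumors. Of 21 skeletal muscle genes tested, 1 was higher, the calcium channel gene ryr1b, and 20 were lower, with a median of -7.36. The sums were 551 to 737 CPM in CCDC6-RET tumors, against 6072, 13180, 19240, 10355 and 6547 CPM in BRAF(V600E) tumors 1, 2, 3, 6 and 7, so that tumor 3 stood at more than 3 times tumor 1 while klf15 had 48.3 and 39.6 CPM there. Within the BRAF(V600E) group this sum and klf15 were both lowest in tumor 1 and highest in tumor 3, whereas tumors 2 and 7 stood in opposite order. In CCDC6-RET tumors most of the muscle sum came from ryr1b and eno3, at 286 and 305 CPM on average. In BRAF(V600E) tumors these 2 genes had 47.2 and 788 CPM. The muscle genes actn3b and pgam2 were at -9.24 ± 0.56 and -9.07 ± 0.56 (edgeR adjusted p = 1.99e-06 and 2.08e-06). These values rest on 29 and 5 counts over CCDC6-RET tumors. The muscle-defining factor myog had 0 counts in CCDC6-RET tumors and 87 counts over BRAF(V600E) tumors, and the untested myhz1.1 had 0 and 10 counts. The part of muscle in the fall of klf15 was not tested.

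**Figure D3:**
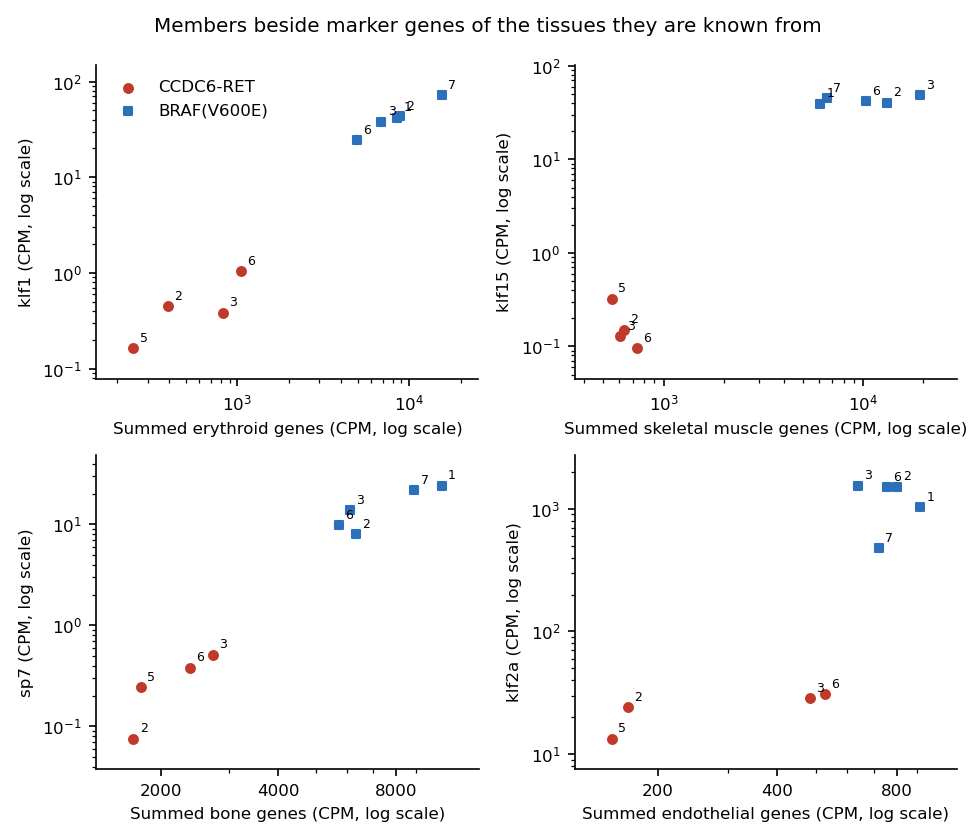
Level of a gene (CPM, log scale) against the summed level of marker genes of a tissue (CPM, log scale) in each library, numbered by tumor, for klf1 with erythroid genes, klf15 with muscle genes, sp7 with bone genes and klf2a with endothelial genes. In all 4 panels the CCDC6-RET tumors (red) lie lower on both axes. Over BRAF(V600E) tumors (blue) klf15 stays between 39.6 and 48.3 CPM while muscle sums run from 6072 to 19240 CPM. Both are lowest in BRAF(V600E) tumor 1 and highest in tumor 3. In CCDC6-RET tumors the muscle sum is mostly ryr1b and eno3, and the bone sum mostly sparc and phex.

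SP1 and SP3 are widely expressed factors of GC-box promoters, and 4 of the 5 genes of SP1 to SP4 did not pass the test. The gene sp1 had 22.6 ± 4.14 CPM in CCDC6-RET tumors and 21.1 ± 1.41 CPM in BRAF(V600E) tumors (log2 fold change 0.09 ± 0.15, edgeR adjusted p = 0.583), a sign that turned with DESeq2 and 2 other scalings. The gene sp2 had 33.2 ± 1.38 CPM and 36.6 ± 4.73 CPM in CCDC6-RET and BRAF(V600E) tumors (-0.14 ± 0.12, edgeR adjusted p = 0.315), and with ribosomal scaling it passed (-0.72, edgeR adjusted p = 0.00334, in a range of 0.00334 to 0.911). The gene sp4 had 29.6, 34.2, 32.7 and 36.2 CPM in CCDC6-RET tumors 2, 3, 5 and 6, against 41.0, 41.9, 40.3, 36.2 and 38.5 CPM in BRAF(V600E) tumors 1, 2, 3, 6 and 7. CCDC6-RET tumor 6 and BRAF(V600E) tumor 6 were nearly equal, and the difference just missed the threshold (-0.26 ± 0.11, edgeR adjusted p = 0.0506). It passed in 7 of 17 alternatives, with a range of 0.000317 to 0.316.

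Of the SP3 copies only sp3a was called. The copy sp3a (ENSDARG00000001549, chromosome 9, 2756196 to 2771266) had 5.66, 2.697, 4.39 and 2.09 CPM in CCDC6-RET tumors 2, 3, 5 and 6, against 6.995, 6.07, 9.3, 6.67 and 12.6 CPM in BRAF(V600E) tumors 1, 2, 3, 6 and 7. No overlap was seen between the groups, although CCDC6-RET tumor 2 came close to BRAF(V600E) tumor 2, and the log2 fold change was -1.15 ± 0.35 (edgeR adjusted p = 0.0137). The sp3a call ended in 2 of 17 alternatives, both on the 6 tumors with shared numbers (edgeR adjusted p = 0.0752 without a replicate block), with a range of 0.000654 to 0.102. The copy sp3b (ENSDARG00000007812, chromosome 6, 10486338 to 10504938) had 73.5, 38.0, 62.1 and 46.6 CPM in the same CCDC6-RET tumors, against 43.0, 49.2, 41.2, 44.7 and 47.3 CPM in the same BRAF(V600E) tumors. CCDC6-RET tumors 2 and 5 were high and tumor 3 low, and the difference did not pass (0.29 ± 0.18, edgeR adjusted p = 0.177).

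SP9 acts in the ridge of growing limbs and fins and in forebrain neurons, and its fish gene had the largest rise of the set. The gene sp9 (ENSDARG00000099374, chromosome 9, 2586372 to 2588444) had 38.6, 69.5, 16.1 and 40.6 CPM in CCDC6-RET tumors 2, 3, 5 and 6, against 0.269, 0.268, 0.348, 0.140 and 0.219 CPM in BRAF(V600E) tumors 1, 2, 3, 6 and 7. Even tumor 5, the lowest with CCDC6-RET, stood far above all BRAF(V600E) tumors, which were all below 1 CPM. Its log2 fold change was 7.33 ± 0.48 (edgeR adjusted p = 2.53e-06).

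Its closest relatives, the SP8 copies, had no counts at all in CCDC6-RET tumors. The copy sp8a (ENSDARG00000011870, chromosome 19, 2483468 to 2486646) had 0 counts in each of the 4 CCDC6-RET tumors against 8.16, 13.04, 21.1, 8.50 and 2.78 CPM in BRAF(V600E) tumors 1, 2, 3, 6 and 7. It was at least 157-fold lower (edgeR adjusted p = 0.000322), with the 0 counts set at 3 counts over the group, or 0.0684 CPM. The untested copy sp8b also had 0 counts in CCDC6-RET tumors against 0.269, 0.447, 0.348, 0.351 and 0.585 CPM in BRAF(V600E) tumors, at least 5.84-fold lower. For sp8a the BRAF(V600E) tumors were themselves far apart, with tumor 3 the highest and tumor 7 the lowest.

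Genes of tissues where SP8 and SP9 are known did not move as a block. Of 7 genes of the fin fold and limb ridge tested, 1 was higher and 5 were lower (median -3.79), with sums of 42.0 to 106 CPM in CCDC6-RET tumors and 61.2 to 82.0 CPM in BRAF(V600E) tumors. The fin growth factor gene fgf24 was the higher one (3.02 ± 0.25, edgeR adjusted p = 6.83e-06), dlx2a was lower (-5.21 ± 0.55, edgeR adjusted p = 2.88e-05), and the untested fgf8a had 0 counts in CCDC6-RET tumors and 13 counts over BRAF(V600E) tumors. Most of this list's sum in CCDC6-RET tumors came from fgf24, at 77.8 CPM on average, against 9.55 CPM in BRAF(V600E) tumors. Neuronal genes had 4 higher and 4 lower calls among 11 tested (median -0.73), with sums of 178 to 236 CPM in CCDC6-RET tumors and 42.1 to 63.0 CPM in BRAF(V600E) tumors. The neuronal genes map2 (4.02 ± 0.27) and syt1a (3.27 ± 0.22) were higher (edgeR adjusted p = 2.77e-06 and 2.48e-06), and the neuronal gene snap25a had 0 counts in CCDC6-RET tumors and 125 counts in BRAF(V600E) tumors. Most of the neuronal sum in CCDC6-RET tumors came from map2 and syt1a, at 117 and 40.0 CPM on average. In BRAF(V600E) tumors these genes had 7.21 and 4.12 CPM. The pan-neuronal marker elavl3 was near absent from both groups, with 0 counts and 5 counts over CCDC6-RET and BRAF(V600E) tumors.

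SP7, also named osterix, is required for bone-forming osteoblasts, and SP5 is a target of Wnt signals. The gene sp7 (ENSDARG00000019516, chromosome 6, 58628600 to 58679929) had 0.0755, 0.514, 0.244 and 0.381 CPM in CCDC6-RET tumors 2, 3, 5 and 6, against 24.1, 8.04, 13.8, 9.90 and 22.0 CPM in BRAF(V600E) tumors 1, 2, 3, 6 and 7. Both groups were far apart, with tumors 1 and 7 the high ones of the BRAF(V600E) group. The log2 fold change was -5.73 ± 0.56 (edgeR adjusted p = 1.80e-05), on 12 counts over all CCDC6-RET tumors.

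Bone and cartilage genes were lower beside sp7. Of 13 tested genes of osteoblasts and bone matrix, sp7 itself included, 1 was higher, the phosphate-regulating gene phex, and 12 were lower, with a median of -4.31. The osteoblast factor gene runx2b fell by 4.16 ± 0.52 (edgeR adjusted p = 7.30e-05). Sums came to 1704, 2717, 1780 and 2383 CPM in CCDC6-RET tumors 2, 3, 5 and 6, against 10454, 6303, 6086, 5701 and 8908 CPM in BRAF(V600E) tumors 1, 2, 3, 6 and 7. BRAF(V600E) tumors 1 and 7 were the high ones here and in sp7, and the 1 to 4 counts of sp7 per CCDC6-RET tumor give no order among those tumors. Most of the bone sum in CCDC6-RET tumors came from sparc and phex, at 1414 and 483 CPM on average, against 2286 and 157 CPM in BRAF(V600E) tumors. Cartilage genes had 0 higher and 9 lower calls among 10 (median -6.87), with sums of 3.17 to 42.9 CPM in CCDC6-RET tumors and 778 to 2702 CPM in BRAF(V600E) tumors. The cartilage factor gene sox9a fell by 6.08 ± 0.49 and the matrix gene ucmab by 8.88 ± 0.93 (edgeR adjusted p = 6.63e-06 and 2.57e-05). The sox9a value rests on 15 counts and the ucmab value on 1 count over CCDC6-RET tumors. The part of skeletal tissue in the fall of sp7 was not tested.

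The SP5 genes were at the edge of detection. Over all libraries of a group, sp5a had 1 count in CCDC6-RET tumors and 26 counts in BRAF(V600E) tumors, a BRAF(V600E) to CCDC6-RET ratio of 18.5 (exact 95% counting interval 3.03 to 757). For sp5l there were 2 counts and 3 counts, a ratio of 1.06 (0.122 to 12.7), and no difference was detectable at this depth. These intervals cover counting error only. Wnt target and pathway genes gave 3 higher and 3 lower calls among 9 tested (median -0.48), with sums of 345 to 418 CPM in CCDC6-RET tumors and 204 to 241 CPM in BRAF(V600E) tumors. The 3 higher were ccnd1, lef1 and the pathway gene axin1. Most of the sum in CCDC6-RET tumors came from ccnd1 and axin1, at 199 and 114 CPM on average, against 49.1 and 65.0 CPM in BRAF(V600E) tumors. The cyclin gene ccnd1 was higher (2.02 ± 0.14, edgeR adjusted p = 3.09e-06) and the feedback gene axin2 was lower (-1.27 ± 0.12, edgeR adjusted p = 1.52e-05). The SP6 row outside the rule had 6.04, 7.96, 3.82 and 0.952 CPM in CCDC6-RET tumors 2, 3, 5 and 6, against 1.79, 3.13, 1.91, 2.88 and 2.56 CPM in BRAF(V600E) tumors 1, 2, 3, 6 and 7, and did not pass (0.92 ± 0.50, edgeR adjusted p = 0.120).

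Genes of proteins that work with these factors were called in both directions. Of 19 tested cofactor genes, 10 were higher and 6 were lower, with a median of 0.27. Sums were 1780 to 2149 CPM in CCDC6-RET tumors and 1287 to 1467 CPM in BRAF(V600E) tumors. The gene ctbp2a, for a CtBP corepressor, was higher (2.0 ± 0.20, edgeR adjusted p = 1.83e-05), and the untested ctbp2l had 0 counts in CCDC6-RET tumors and 6 counts over BRAF(V600E) tumors. The corepressor gene sin3aa was higher by 0.49 ± 0.11 (edgeR adjusted p = 0.00206) and its copy sin3ab was at 0.14 ± 0.10 (edgeR adjusted p = 0.232), both named after their values were seen. Of the coactivator genes, ep300a and crebbpa were lower (-0.60 and -0.85), while their copies ep300b and crebbpb were higher (0.52 and 0.27). These were also named after their values were seen. The EGR and WT1 factors, whose zinc fingers bind similar GC-rich sites, had 2 higher and 0 lower calls among 4 tested (median 1.11). Their sums were 591 to 1238 CPM in CCDC6-RET tumors and 433 to 871 CPM in BRAF(V600E) tumors. Called were egr2b (1.65 ± 0.35, edgeR adjusted p = 0.00191) and wt1b (2.29 ± 0.87, edgeR adjusted p = 0.0366).

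Copies that carry the same family number differed in their ratio between the groups in 6 of 8 pairs. The log2 ratio of the copies was taken within each library, on CPM with 0.5 CPM added, and its group means were compared by a two-sided exact permutation test over all assignments of the tumors to groups of 4 and 5, whose smallest p is 0.00794. Only differences of the ratio are read here, since the ratio itself depends on gene length. These 6 passed a p of 0.05 and had no overlap between the groups, with p not adjusted over the pairs. No share over other gene pairs was computed. Among all single genes tested, 29.2% lay wholly above and 35.5% wholly below in CCDC6-RET tumors, so the count is not read as particular to copies. The ratio klf5a to klf5l was -6.14 ± 1.55 in CCDC6-RET tumors and -0.33 ± 0.47 in BRAF(V600E) tumors (SD, n = 4 and 5), a difference of -5.81 (exact p = 0.00794). The 2 genes are named alike, but the table pairs them with different human genes.

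The pair klf2a to klf2b shifted by -2.91, with mean log2 ratios of 0.10 ± 0.90 in CCDC6-RET tumors and 3.01 ± 0.41 in BRAF(V600E) tumors (exact p = 0.00794). Both copies fell, and klf2a fell further. The pair klf11a to klf11b shifted by -2.22, with -2.67 ± 1.08 in CCDC6-RET tumors and -0.45 ± 0.80 in BRAF(V600E) tumors (exact p = 0.0159). For sp3a to sp3b the shift was -1.35 (-3.76 ± 0.29 in CCDC6-RET tumors, -2.41 ± 0.43 in BRAF(V600E) tumors, exact p = 0.00794), and for klf7a to klf7b it was -0.84 (-5.20 ± 0.51 and -4.37 ± 0.12, exact p = 0.00794). In each of these pairs all 4 CCDC6-RET tumors lay on the same side of all 5 BRAF(V600E) tumors.

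The klf5a to klf5b shift of -2.82 (exact p = 0.00794) rests on the added 0.5 CPM, since klf5b had 0 counts in CCDC6-RET tumors, and with 0.1 CPM added it was -1.44 (exact permutation p = 0.175). The klf7 shift was -0.26 with 2 CPM added (exact permutation p = 0.127), and the sp3 shift was -1.1 as a difference of medians (exact permutation p = 0.111). The KLF12 and KLF6 pairs did not pass, at 0.54 for klf12a to klf12b (exact p = 0.183) and -0.13 for klf6a to klf6b (exact p = 0.548).

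**Figure D4:**
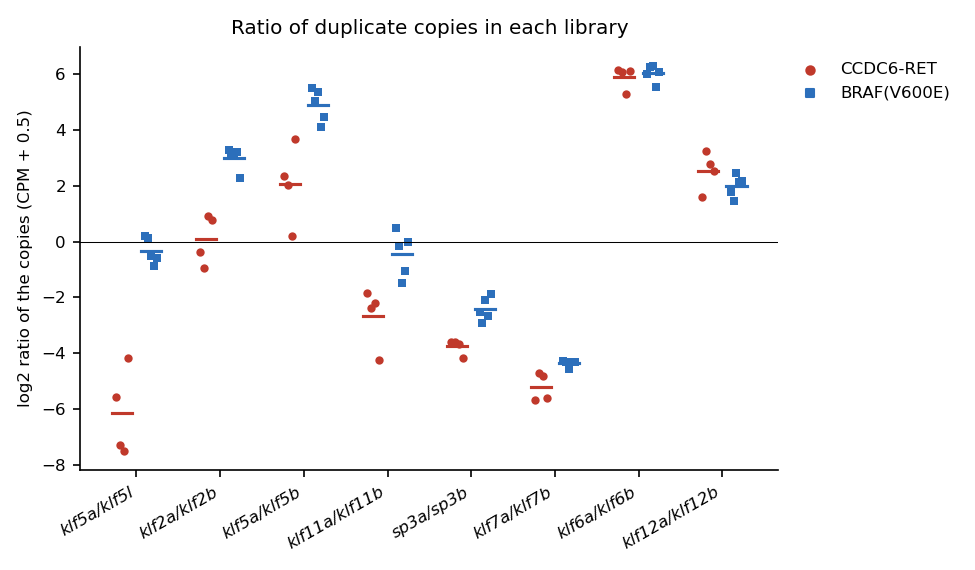
Log2 ratio of the CPM of both copies (0.5 CPM added) in each library for 8 pairs, with 1 point per tumor and a bar at the group mean for CCDC6-RET (red, left) and BRAF(V600E) (blue, right). The groups are separate in the 6 pairs on the left, from klf5a/klf5l to klf7a/klf7b, and overlap for the klf6 and klf12 pairs.

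In 5 places, 2 members had no other gene of the table between them, and their calls differed. Over all genes tested, 33.9% were called higher and 38.2% lower. How often other neighbouring genes differ in their calls was not computed. On chromosome 9, sp9 (7.33) and sp3a (-1.15) lie 168 kb apart and were called in opposite directions. On chromosome 21, klf8 (-1.39) and klf5l (1.14) lie 17.7 kb apart and were also called in opposite directions, although the klf5l call held in only 12 of 17 alternatives. In the other 3 places a KLF12 gene or sp4 did not pass while its neighbour was lower. These were klf12a (-0.08) and klf5a (-4.63), 36.8 kb apart on chromosome 1, klf12b (-0.52) and klf5b (0 counts in CCDC6-RET tumors), 16.98 kb apart on chromosome 9, and sp4 (-0.26) and sp8a (0 counts in CCDC6-RET tumors), 129 kb apart on chromosome 19.

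**Figure D5:**
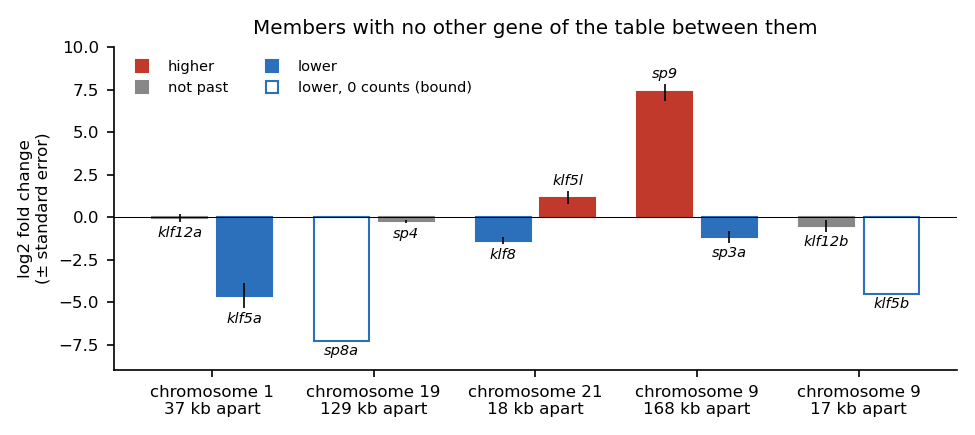
Log2 fold change, CCDC6-RET minus BRAF(V600E), with its standard error for the 5 pairs of members that have no other gene of the table between them, with the chromosome and the gap in kb under each pair. Colour marks the edgeR call, open bars mark the smallest fall that 0 counts allow, and the sp9 and klf5l bars point up while their neighbours point down.

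The members varied more among CCDC6-RET than among BRAF(V600E) tumors, as did genes in general. Over the 21 members with at least 2 CPM in both group means, the median coefficient of variation (SD over mean) was 43.8% in CCDC6-RET tumors and 22.2% in BRAF(V600E) tumors, and it was larger in CCDC6-RET tumors for 17 of 21 (81.0%). Over the 12780 tested genes at that level the medians were 25.6% and 13.5%, and it was larger in CCDC6-RET tumors for 79.5%. CCDC6-RET tumor 5 was the lowest of its group for 11 of the 27 tested members with counts in the group and the highest for 2. In BRAF(V600E) tumors no library was highest or lowest for more than 8 of the 29 tested members.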

How the data were processed

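RNA of 4 CCDC6-RET and 5 BRAF(V600E) zebrafish thyroid tumors was analysed from a single table. Its deposited counts, whole numbers per gene and library, were made by the authors from paired-end reads with STAR, version 2.3 by the submitters' processing notes, on GRCz10. Which tool counted reads, whether strand was used, and which annotation release served are not given in the sources used here. Further columns hold normalized values of the authors (signal), and DESeq2 log2 fold changes, standard errors, a Wald score and p-values that the authors deposited, and none of these was used.

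Counts were tested with edgeR 4.0.16 (R 4.3.3) after filterByExpr (minimum count 10) and TMM scaling, by the quasi-likelihood F test with no covariate, at a Benjamini-Hochberg adjusted p under 0.05. Ratios of copies were tested by exact permutation. Over 0 counts the floor was 3 counts over the group, and intervals and floors cover counting error only. The steps were tested on simulated counts. Alternatives used DESeq2 1.42.0, limma-voom (limma 3.58.1), other scalings and filters, a replicate block and leaving out each tumor.

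The members and the 16 gene lists (248 entries, 235 matched, 7 of them by current symbol) were chosen with earlier results of these data known. The T and NK list holds cd3eap, which is not a T cell gene, and gata1a, tcf7 and dlx5a each stand in 2 lists. Values in every tumor were given by rule for klf1, klf15, sp7, sp9, copies of a pair called in opposite directions or of which only 1 was called, the 6 largest rises and 6 largest falls with at least 2 CPM in the higher group (4 genes rose), and the 3 members with the highest mean CPM, with up to 2 genes of smallest p per list. Per-tumor values of other members, and list genes beyond those, were added after values were seen. No sequences are shown.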

Additional observations from a re-analysis of the deposited data

Results flagged for a closer look

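In 6 cases a single tumor stood apart from the rest of its group by Dixon's criterion for groups of 4 and 5, which chance alone meets in about 1 in 20 groups. All 32 members were searched in both groups, so a few such cases arise by chance alone. A share over all genes is not given. For klf5l, CCDC6-RET tumor 3 was highest at 316 CPM, with the next CCDC6-RET tumor at 122 CPM. For sp1, BRAF(V600E) tumor 2 was lowest at 18.7 CPM, with the next at 21.3 CPM, and for klf6b, BRAF(V600E) tumor 6 was highest at 7.16 CPM, with the next at 4.22 CPM. The other 3 cases rest on 1 to 3 counts. These were sp5l in CCDC6-RET tumor 6 at 0.190 CPM, sp5l in BRAF(V600E) tumor 7 at 0.219 CPM and sp5a in CCDC6-RET tumor 6 at 0.0952 CPM, each with 0 counts in the other tumors of its group.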

How the results depend on the processing

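Of 489 values of single members under alternatives, 437 kept their direction and side of the threshold, 21 newly passed, 26 no longer passed and 5 reversed. The reversals were sp3b with ribosomal scaling (-0.23), sp1 with DESeq2 (-0.00466), RLE factors (-0.00555) and ribosomal scaling (-0.46), and klf12a without BRAF(V600E) tumor 7 (0.0675, in a range from -0.22 on leaving out each tumor). The members called were 4 higher and 15 lower, and 2 were higher with ribosomal scaling. Leaving out each tumor in turn gave 2 to 4 higher, with 2 without BRAF(V600E) tumor 7, and 13 to 16 lower. Ribosomal scaling also moved the share of higher calls among all calls to 25.5%, against 47.0% with TMM. Of the ratios, klf5a to klf5b was -1.44 with 0.1 CPM added, klf7a to klf7b -0.26 with 2 CPM added, and sp3a to sp3b -1.1 and klf6a to klf6b 0.00697 as medians. Leaving out each tumor, klf6a to klf6b ran from -0.25 to 0.0854 and klf12a to klf12b from 0.31 to 0.86, which passed without CCDC6-RET tumor 2 (exact permutation p = 0.0179). The causes were not tested.

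For tumors with the same number (2, 3 and 6), the deviations from the group means had correlations of 0.0334, 0.00765 and -0.0410. What the numbers stand for is not in the labels, and these values cannot show whether such tumors share a clutch or a run. With the replicate block on these 6 tumors 3 members were higher and 13 lower, against 3 and 14 without it, and 10260 genes were called, against 11522. The block ended the call of klf13 (edgeR adjusted p = 0.0762, against 0.0407 in the same 6 tumors without it), and sp3a passed neither fit (0.102 with the block, 0.0752 without). At this depth a gene with 0 counts in CCDC6-RET tumors may still be present at up to 0.0684 CPM.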
